A study of Mus musculus with 12 samples.

Results

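The genes described here are 10 transcription factors or cofactors of the SOX, RUNX and MEF2 families that act in cartilage: Sox4, Sox5, Sox6, Sox8, Sox9, Runx1, Runx2, Runx3, Cbfb and Mef2c. They were matched by gene symbol among the 32285 genes of the count table, and all 10 were present in it. Of these, 9 had enough reads to be tested and Runx3 did not. RNA was sequenced from the caudal nucleus pulposus, the core of the tail disc, of 6 Opa1cKO and 6 WT mice, with 1 mouse per library. All mice were 12 months old, of the strain C57BL/6-129/SvEv, and both genotypes had received tamoxifen at 100 mg/kg on 3 days.

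In the Opa1cKO mice AcanCre, a recombinase expressed where aggrecan is made, deleted Opa1 at 3 months of age, and tissue was taken 9 months later. AcanCre acts in cartilage as well as in the disc, so Opa1 may have been deleted in joints too, which were not sequenced here. Whether the WT mice carried the recombinase or floxed alleles is not given in the labels. OPA1 fuses inner mitochondrial membranes, and the series asks which transcripts its loss alters. Opa1 itself was at 40.6 ± 6.30 CPM in Opa1cKO libraries and 102 ± 17.3 CPM in WT libraries (SD, n = 6 each), with no overlap between genotypes (log2 fold change -1.22, SE 0.116, edgeR adjusted p = 3.05e-05). CPM are the counts of a gene scaled by the size of its library, so that libraries of different depth can be compared.

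SOX9 switches on the genes of cartilage matrix and is needed to form and keep both cartilage and the nucleus pulposus. SOX5 and SOX6 bind beside it and strengthen its action, and SOX8 is a close relative that shares its DNA-binding and activation domains. RUNX factors bind DNA together with CBFB, their common partner subunit. RUNX2, RUNX3 and MEF2C drive chondrocytes towards hypertrophy and RUNX2 also directs bone formation, while RUNX1 acts in cartilage and in blood formation.

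The promoters of the RUNX genes are shown because a motif that RUNX proteins bind sits as a near-identical pair in 1 window of each of the 3 genes. Each window runs from 250 bases before to 50 bases after a RefSeq transcript start on GRCm38.p6 (mm10), read 5′ to 3′ on the gene's strand. Capitals mark each match to TGTGGT or its reverse complement ACCACA. The windows lie at chr16:92826025-92826324 on the minus strand for Runx1, chr17:44814578-44814877 on the minus strand for Runx2 and chr4:135120395-135120694 on the plus strand for Runx3.
Runx1: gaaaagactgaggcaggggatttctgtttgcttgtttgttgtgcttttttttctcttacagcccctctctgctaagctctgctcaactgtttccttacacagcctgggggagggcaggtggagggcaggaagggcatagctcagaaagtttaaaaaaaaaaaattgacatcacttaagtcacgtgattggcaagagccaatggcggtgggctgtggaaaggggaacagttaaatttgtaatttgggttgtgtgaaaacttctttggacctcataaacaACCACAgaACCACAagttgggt
Runx2: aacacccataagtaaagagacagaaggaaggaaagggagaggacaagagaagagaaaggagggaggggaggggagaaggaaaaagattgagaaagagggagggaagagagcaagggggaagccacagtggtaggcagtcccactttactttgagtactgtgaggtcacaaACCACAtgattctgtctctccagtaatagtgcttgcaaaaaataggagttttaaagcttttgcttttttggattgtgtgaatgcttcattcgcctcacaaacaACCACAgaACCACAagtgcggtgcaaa
Runx3: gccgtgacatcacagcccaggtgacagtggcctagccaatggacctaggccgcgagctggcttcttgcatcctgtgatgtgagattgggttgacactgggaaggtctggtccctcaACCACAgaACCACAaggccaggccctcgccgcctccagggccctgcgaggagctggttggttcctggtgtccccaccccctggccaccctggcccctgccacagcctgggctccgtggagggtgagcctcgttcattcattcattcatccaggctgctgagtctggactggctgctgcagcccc
The Runx1 and Runx2 windows share a run of 22 bases, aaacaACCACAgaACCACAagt, and the Runx3 window shares 18 of them, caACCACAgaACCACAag. In Runx1 the matches start 28 and 36 bases after the transcript start, and in Runx2 at 23 and 31 bases after it, with a further match 80 bases before it. In Runx3 they lie 134 and 126 bases before the start. The table holds 1 further window for Runx1 and 1 for Runx3, and neither has a match. The spaced pair ACCACANNACCACA, searched on both strands, occurred in 7 of 32851 promoter windows (0.0213%), and 3 of these 7 were the windows printed. A single TGTGGT match on either strand was common, at 16.8% of all windows, and 5 of the 18 windows of the 9 matched genes held one. The SOX core ACAAT occurred in 31% of all windows and in 6 of the 18, among them single windows of Sox5, Runx2 and Mef2c. The RefSeq table has several windows for Sox6, Runx1, Runx3 and Mef2c and none for Sox9. A match describes letters in a window and does not show that a factor binds there.

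Library totals ran from 37268242 to 56618266 counts in Opa1cKO and from 45657321 to 53261644 in WT. Markers of the nucleus pulposus and notochord summed to 27400 to 49500 CPM in Opa1cKO and 34600 to 46800 CPM in WT, most of it Car3 at 19700 to 39100 CPM in Opa1cKO and 25400 to 34900 CPM in WT. The notochord factor T was at 2430 to 3190 CPM in Opa1cKO and 2350 to 3000 CPM in WT, while Foxa1 and Foxa2 were low, at no more than 11.1 CPM in any library. Of the 10 markers, Noto alone was below 1 CPM in every library. Sex-linked reads went against the labelled sex in 4 of the 12 libraries. Opa1cKO 4, WT 5 and WT 6 were labelled male but held Xist reads, and WT 4 was labelled female but held Y-linked reads. Labelled sex was a term in the fit, and results are also given without these 4 libraries. No male WT library is then left. With the sex term, genotype values of that fit rest on Opa1cKO 5 and Opa1cKO 6 against WT 1, WT 2 and WT 3. In whole tissue, fewer cells of a type and less RNA per cell cannot be told apart.

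No factor of the set changed by the test. Of the 9 tested members, 0 passed an adjusted p of 0.05 in edgeR, against 10.2% of all 15229 genes tested, and DESeq2 and limma-voom also called 0. At an unadjusted p under 0.05 there was 1, Sox8, against 25.2% of all genes. Fitted values were positive for 5 members and negative for 4, with a median log2 fold change of 0.0422 over the members and 0.0126 over all genes tested. No member had genotype ranges apart, against 6.41% of all genes. No 95% interval of a tested member reached beyond 1.77-fold in either direction.

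**Figure D1:**
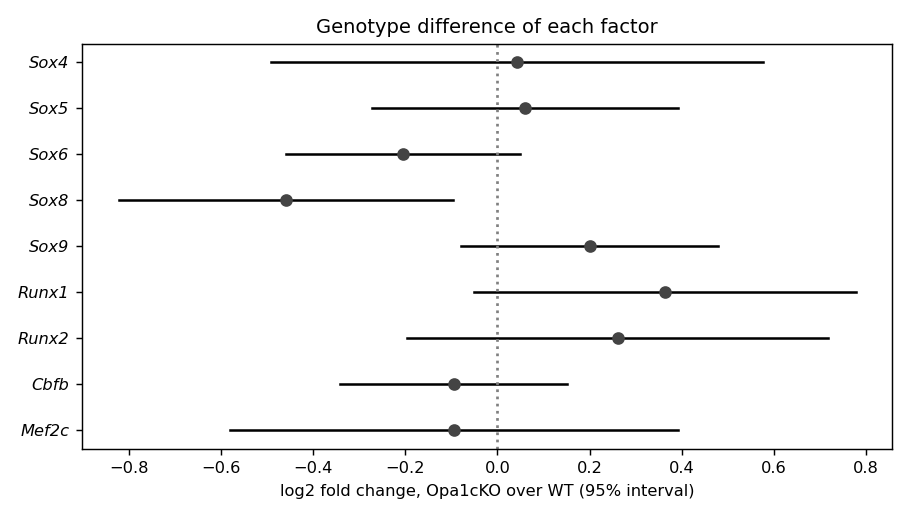
Fitted log2 fold change, Opa1cKO over WT, of the 9 tested genes (points) with 95% intervals (lines). Sox8 is the gene whose interval lies wholly below 0, and the interval of every other gene includes 0.

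The order of the genes by length-scaled level was identical in Opa1cKO and WT. TPM, a read share scaled by transcript length, allows levels of different genes to be compared. Sox9 stood first, at 823 ± 138 TPM in Opa1cKO and 688 ± 106 TPM in WT (SD, n = 6 each), above 99.6% of genes in Opa1cKO and 99.5% in WT. Sox6 followed at 102 ± 15.6 TPM in Opa1cKO and 120 ± 20.01 TPM in WT, with no overlap with Sox9 in either genotype. Sox8 was at 79.0 ± 20.6 TPM in Opa1cKO and 108 ± 14.4 TPM in WT, and its range overlapped that of Sox6 in both.

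The RUNX partner Cbfb, at 64.3 ± 8.72 TPM in Opa1cKO and 68.1 ± 9.42 TPM in WT, stood well above every RUNX gene. Its range overlapped that of Sox8 in Opa1cKO and lay below it in WT. Sox5 came next with 23.4 ± 6.65 TPM in Opa1cKO and 22.8 ± 3.79 TPM in WT, below Cbfb in every library. Sox4 was at 18.5 ± 7.05 TPM in Opa1cKO and 15.0 ± 5.58 TPM in WT. Runx1 was at 15.0 ± 6.87 TPM in Opa1cKO and 12.3 ± 1.82 TPM in WT, and in both genotypes Sox5 overlapped Sox4, Sox4 overlapped Runx1 and Runx1 overlapped Mef2c. The factors of hypertrophy were lowest. Mef2c was at 7.73 ± 2.56 TPM in Opa1cKO and 7.83 ± 2.27 TPM in WT, and Runx2 at 4.40 ± 1.46 TPM in Opa1cKO and 3.54 ± 0.812 TPM in WT. Mef2c and Runx2 overlapped in Opa1cKO and were apart in WT.

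**Figure D2:**
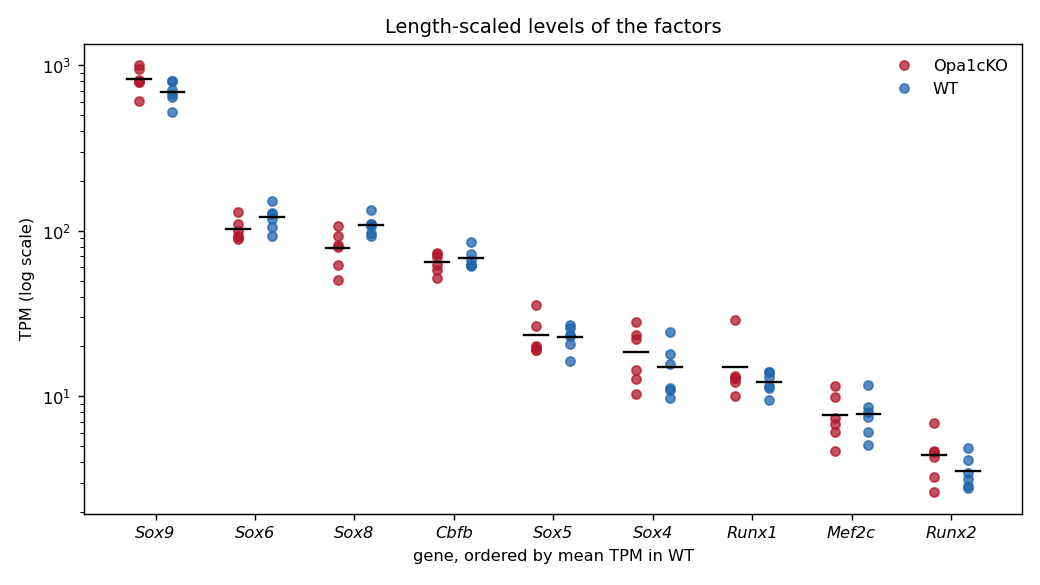
TPM of each gene on a log axis, 1 point per library, Opa1cKO left of WT, with a black line at the mean of 6 libraries. Sox9 averages 823 TPM in Opa1cKO and 688 TPM in WT and stands clear of the other genes, while Runx2 is lowest at 4.40 TPM in Opa1cKO and 3.54 TPM in WT.

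Runx3 was at or near 0. Its counts were 3, 0, 0, 0, 1 and 2 in Opa1cKO libraries 1 to 6 and 0 in all 6 WT libraries. A count of 0 allows up to 3 counts, or 0.0528 to 0.0807 CPM in Opa1cKO and 0.0569 to 0.0664 CPM in WT, for counting error only. Both genotypes were thus at or under that limit and no fold is given.

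Sox9, the leading cartilage factor, ranged from 556 to 852 CPM in Opa1cKO with a median of 727, and from 504 to 730 CPM in WT with a median of 619. Of the 6 Opa1cKO libraries, 3 lay above every WT library, and the others lay within the WT range. The fitted log2 fold change was 0.20 (SE 0.130, 95% interval -0.08 to 0.48, edgeR adjusted p = 0.362), with 736 ± 109 CPM in Opa1cKO and 625 ± 93.9 CPM in WT (SD, n = 6 each). Leaving out each library in turn gave 0.07 to 0.30.

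Sox8, the close relative of Sox9, ranged from 33.7 to 70.6 CPM in Opa1cKO with a median of 53.8, and from 61.9 to 92.4 CPM in WT with a median of 73.0. Of the Opa1cKO libraries, 4 lay below every WT library, and Opa1cKO 2 and Opa1cKO 5 lay inside the WT range. Sox8 averaged 53.3 ± 13.5 CPM in Opa1cKO and 74.1 ± 10.7 CPM in WT (SD, n = 6 each), a ratio of 0.728 in the fit with a 95% interval of 0.566 to 0.936. The log2 fold change of -0.46 (SE 0.168) had an unadjusted p of 0.0171 and missed the threshold after adjustment in edgeR (adjusted p = 0.103). It passed in the fit without Opa1cKO 2 (-0.54, edgeR adjusted p = 0.0461) and was smallest without WT 6 (-0.30, adjusted p = 0.343).

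Sox8 was at -0.32 (edgeR adjusted p = 0.549) when the 4 libraries whose reads go against their sex label were left out. That value rests on Opa1cKO 5 and Opa1cKO 6 against WT 1, WT 2 and WT 3. Sox8 lies at chr17:25565892-25570686 on the minus strand and overlaps the antisense gene 2810468N07Rik, which held 14.3 CPM in Opa1cKO and 16.1 CPM in WT, equal to 23.9% of the reads of Sox8. Reads of this pair cannot be told apart with certainty, since the strand setting of the counting is unknown. The antisense gene itself did not pass (log2 fold change -0.218, adjusted p = 0.385 in edgeR).

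Among the genes whose level followed Sox8 most closely over the 12 libraries, of 11805 compared, were Bmf and Bambi. Their Pearson r with Sox8 was 0.913 and 0.905, given as a description of libraries that share both genotype and scaling. Both were chosen for following Sox8, the member with the smallest genotype p, so their lower levels in Opa1cKO are not separate support. Bmf, which encodes a pro-apoptotic BH3-only protein, was lower at 38.1 ± 7.64 CPM in Opa1cKO against 54.1 ± 4.84 CPM in WT (log2 fold change -0.49, edgeR adjusted p = 0.0262). That call was lost without WT 5, WT 6, Opa1cKO 1 or Opa1cKO 6, with an adjusted p of up to 0.103. Bambi, a decoy receptor of BMP and TGF-beta signalling, was at 4.57 ± 1.28 CPM in Opa1cKO and 7.40 ± 1.55 CPM in WT (edgeR adjusted p = 0.0548).

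Sox6 and Sox5, the helpers of SOX9, did not pass either. Sox6 ranged from 291 to 399 CPM in Opa1cKO with a median of 309, and from 324 to 493 CPM in WT with a median of 380. In 3 Opa1cKO libraries Sox6 was below the whole WT range, and the log2 fold change was -0.20 (SE 0.118, 95% interval -0.46 to 0.05, edgeR adjusted p = 0.303). Sox5 ranged from 61.0 to 106 CPM in Opa1cKO with a median of 61.8, and from 55.3 to 82.3 CPM in WT with a median of 73.3. The Opa1cKO values of Sox5 split into 4 libraries near 61 CPM and 2, Opa1cKO 4 and Opa1cKO 6, above every WT library. Its log2 fold change was 0.06 (SE 0.154, 95% interval -0.27 to 0.39, edgeR adjusted p = 0.856).

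Sox4, a factor of progenitor cells in many tissues, had the widest interval of the 9 factors. Its values were 29.2, 23.7, 23.8, 15.2, 10.9 and 12.7 CPM in Opa1cKO 1 to 6, and 10.9, 11.9, 11.5, 24.1, 16.2 and 19.0 CPM in WT 1 to 6. The genotypes overlapped throughout, and Opa1cKO 1 alone exceeded the highest WT library. The log2 fold change was 0.04 (SE 0.247, 95% interval -0.49 to 0.58, edgeR adjusted p = 0.940).

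Sox4 did separate by the sex-linked reads of the libraries, a pattern chosen after its values were seen. The 4 libraries with Y-linked reads, Opa1cKO 1, Opa1cKO 2, Opa1cKO 3 and WT 4, held 23.7 to 29.2 CPM (25.2 ± 2.66, SD, n = 4), and the 8 libraries with Xist reads held 10.9 to 19.0 CPM (13.5 ± 2.96, SD, n = 8). These ranges did not overlap, as was the case for 0.67% of all genes tested. With genotype in the fit, Sox4 was at a log2 fold change of 0.91, libraries with Y-linked reads over those with Xist reads (SE 0.163). It ranked 9 by p among the 15229 genes tested. Genes read only in the 4 libraries with Y-linked reads were removed by the filter and are not among these. Sox4 did not pass the adjustment over the genes tested (edgeR adjusted p = 0.112), where 6 genes (0.0394%) did and 0 of the 9 factors. Sox4 was the 1 factor at an unadjusted p under 0.05. The fit without WT 6 put it past the threshold (0.96, edgeR adjusted p = 0.0224), and the fits without each other library gave an adjusted p of up to 0.407. Since 3 of the 4 libraries with Y-linked reads were Opa1cKO, sex and genotype were only partly separable.

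**Figure D3:**
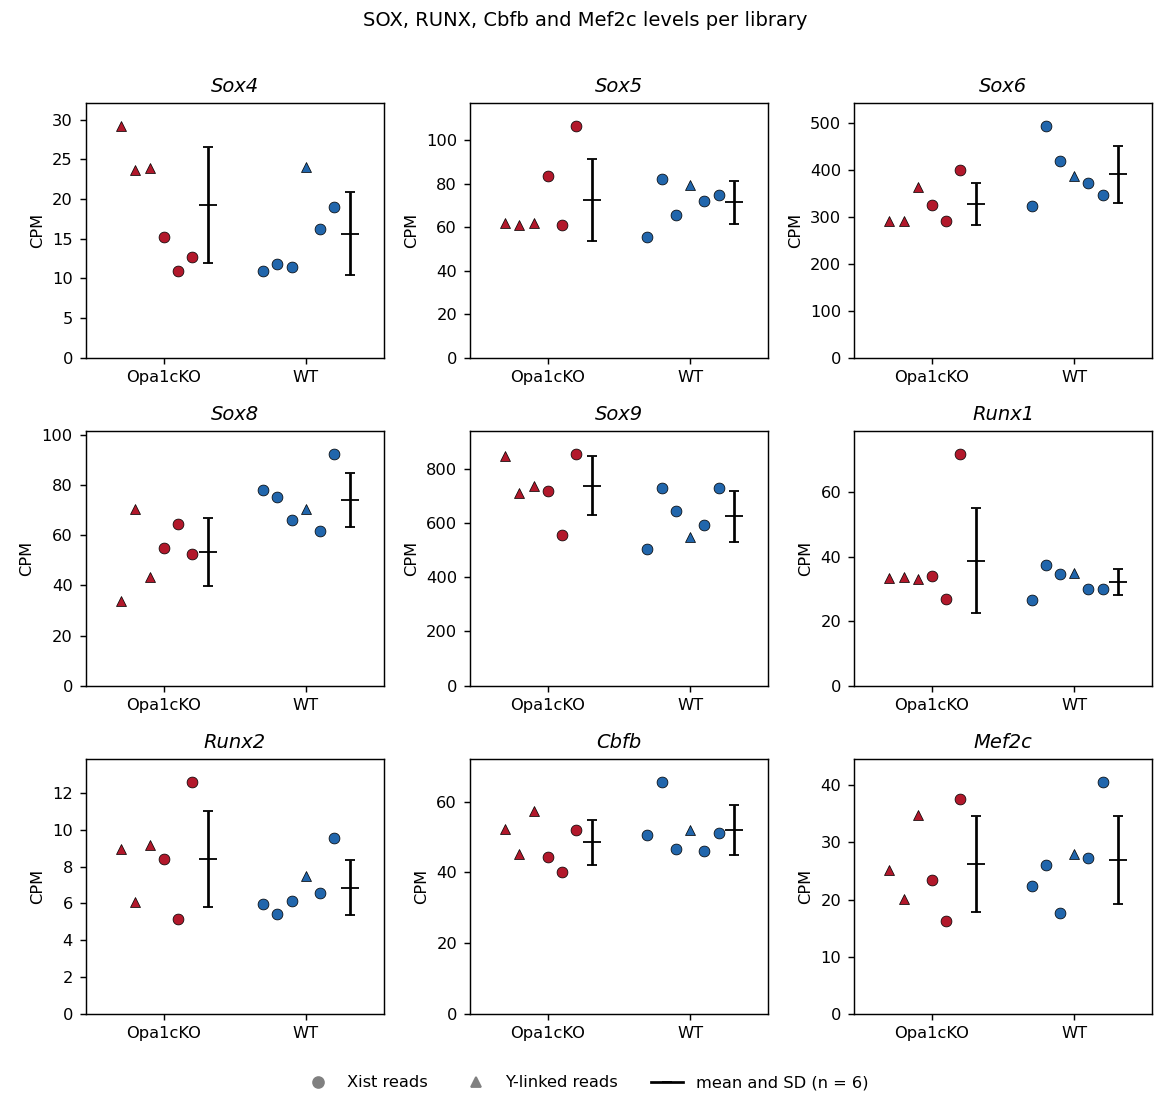
CPM of the 9 tested genes in each library, Opa1cKO left of WT, with points in replicate order, circles for libraries with Xist reads, triangles for those with Y-linked reads, and the mean with SD of 6 libraries beside them. Runx1 stands apart in Opa1cKO 6 at 71.8 CPM, and Sox4 is at 23.7 CPM or more in every library with Y-linked reads.

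Runx1 was even across 11 libraries and high in 1. It ranged from 26.8 to 71.8 CPM in Opa1cKO with a median of 33.5, and from 26.7 to 37.5 CPM in WT with a median of 32.3. The high library was Opa1cKO 6, and the next Opa1cKO library was at 34.1 CPM. The log2 fold change was 0.36 with all libraries (SE 0.192, 95% interval -0.05 to 0.78, edgeR adjusted p = 0.260) and -0.01 without Opa1cKO 6 (adjusted p = 0.977). Without Opa1cKO 5, the lowest Opa1cKO library, it was 0.53 and passed the threshold (edgeR adjusted p = 0.0368).

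Runx2 ranged from 5.16 to 12.6 CPM in Opa1cKO with a median of 8.68, and from 5.44 to 9.57 CPM in WT with a median of 6.34. Opa1cKO 6 was again highest and was the sole library above the WT range, while Opa1cKO 5 lay below it. The log2 fold change was 0.26 (SE 0.213, 95% interval -0.20 to 0.72, edgeR adjusted p = 0.480) and -0.09 without Opa1cKO 6. Cbfb, the partner subunit, had the smallest standard error of the set, at 40.0 to 57.4 CPM in Opa1cKO with a median of 48.7 and 46.2 to 65.5 CPM in WT with a median of 50.9. Its log2 fold change was -0.10 (SE 0.115, 95% interval -0.34 to 0.15, edgeR adjusted p = 0.655).

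Mef2c ranged from 16.2 to 37.7 CPM in Opa1cKO with a median of 24.4, and from 17.6 to 40.5 CPM in WT with a median of 26.7. Its genotype ranges covered nearly the same span, and the highest libraries were Opa1cKO 6 and WT 6. The log2 fold change was -0.09 (SE 0.225, 95% interval -0.58 to 0.39, edgeR adjusted p = 0.838), -0.44 without Opa1cKO 6 and 0.10 without WT 6.

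A pair of libraries set the ends of many Opa1cKO ranges. Opa1cKO 6 held the highest Opa1cKO value of 6 of the 9 genes, namely Sox5, Sox6, Sox9, Runx1, Runx2 and Mef2c. Opa1cKO 5 held the lowest of 6, namely Sox4, Sox9, Runx1, Runx2, Cbfb and Mef2c. Without Opa1cKO 6 the fitted values of Sox5, Runx1 and Runx2 turned negative, at -0.16, -0.01 and -0.09.

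A marker each of other cell types was high in Opa1cKO 6. Of 6 pericyte and smooth muscle markers, Kcnj8 and Cnn1 were below 1 CPM in every library and Rgs5 reached at most 1.27 CPM, and the summed level was 648 to 1500 CPM in Opa1cKO and 539 to 647 CPM in WT, with 1500 in Opa1cKO 6. Cspg4 made up 1220 CPM of that, against at most 626 CPM in any other library. Acta2 and Myh11, of the same list, were inside the range of the other libraries, at 235 and 44.6 CPM in Opa1cKO 6. Of 5 hypertrophic chondrocyte markers, Ihh, Mmp13 and Panx3 were below 1 CPM in every library and Ibsp reached 0.807 CPM in Opa1cKO and 3.12 CPM in WT, and the sum was 0.649 to 19.9 CPM in Opa1cKO and 0.907 to 4.14 CPM in WT. Col10a1, which encodes the collagen of hypertrophic cartilage, was at 19.1 CPM in Opa1cKO 6 and at most 5.49 CPM elsewhere. The summed nucleus pulposus markers were lowest in this library, at 27400 CPM. The part of these markers in the values of Runx1, Runx2 and Mef2c was not tested. Over the 12 libraries Runx2 and Mef2c had a Pearson r of 0.793, and 0.747 without Opa1cKO 6. Sox5 and Runx1 had 0.794, and 0.563 without it. These were the highest of the 36 pairs of tested genes. Runx1 and Runx2 had 0.631, and 0.194 without Opa1cKO 6, and Runx1 and Mef2c 0.444 and 0.156. In all, 10 pairs were above 0.5 over the 12 libraries and 12 pairs without Opa1cKO 6.

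**Figure D4:**
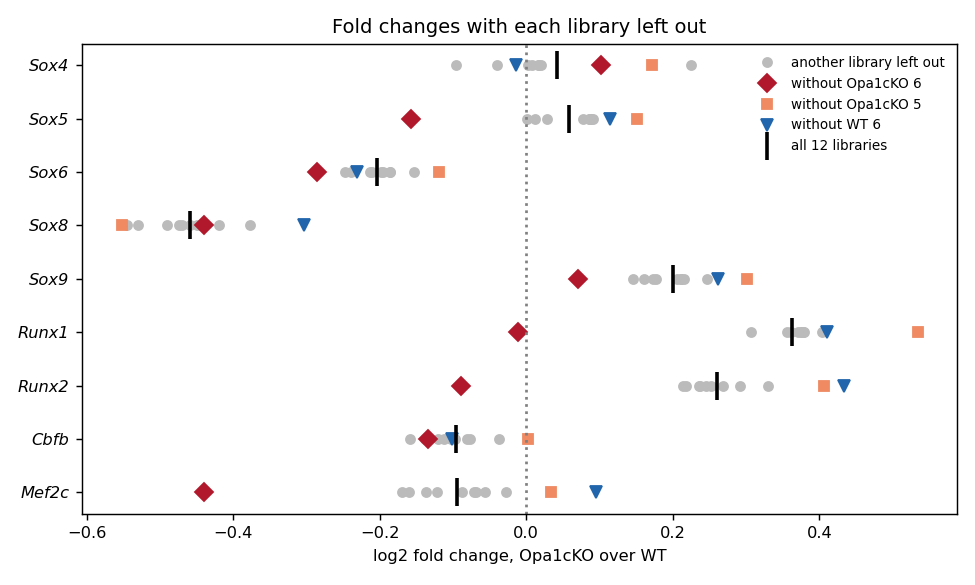
Log2 fold change, Opa1cKO over WT, of each tested gene with each of the 12 libraries left out in turn, and with all libraries (black bars). Runx1 goes to -0.01 and Runx2 to -0.09 without Opa1cKO 6 (diamonds), and Mef2c to -0.44, while Sox8 is negative and Sox9 positive in every fit.

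A genotype by labelled sex term does not compare the sexes here, since both WT libraries labelled male held Xist reads. It called 0 of the 9 genes in edgeR, the smallest adjusted p being 0.808, and 0 of all 15229 genes (0%), with 0 members and 899 genes at an unadjusted p under 0.05. With sex taken from the reads, which leaves 1 male library in WT, the term called 0 members and 0 genes, with 0 members and 770 genes at an unadjusted p under 0.05 and a smallest adjusted p of 0.935 among the members. Other tools were not run on these terms. Without the 4 libraries of contradicted sex, 0 of the 9 factors passed in the edgeR genotype fit, also at an unadjusted p under 0.05. The largest fitted values were Runx2 at 0.60 (edgeR adjusted p = 0.351) and Runx1 at 0.58 (adjusted p = 0.373). With no male WT library left, these values rest on Opa1cKO 5 and Opa1cKO 6 against WT 1, WT 2 and WT 3.

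Genes that work with these factors gave scattered calls. Each was read against the share of all genes tested in edgeR, 5.1% called higher and 5.13% called lower. At an unadjusted p under 0.05 the share was 25.2%, both directions together. Of the same 15229 genes, DESeq2 called 1189 higher and 1130 lower, and limma-voom 670 higher and 804 lower. Of 14 other SOX genes, 10 had too few reads to test, 1 of the 4 tested was called higher and 0 lower, with 2 lower at an unadjusted p under 0.05, 1 lower in DESeq2 and 0 in limma-voom. Sox7, a factor known from blood vessel cells, ranged from 0.324 to 1.96 CPM in Opa1cKO and from 0.133 to 0.310 CPM in WT, with no overlap (log2 fold change 2.56, SE 0.422, edgeR adjusted p = 0.00214). Endothelial markers summed to 2.60 to 4.52 CPM in Opa1cKO and 1.77 to 3.88 CPM in WT, with 6 of 8 below 1 CPM in every library, among them Cdh5 and Kdr, and their part in Sox7 was not tested. Sox12, related to Sox4, was at 33.5 ± 8.15 CPM in Opa1cKO and 45.5 ± 6.45 CPM in WT (log2 fold change -0.54, edgeR adjusted p = 0.0614). Sox7 no longer passed when the 4 libraries whose reads contradict their label were left out (2.57, edgeR adjusted p = 0.0677). That fit rests on Opa1cKO 5 and Opa1cKO 6 against WT 1, WT 2 and WT 3.

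Among 31 tested of 38 partners and regulators, 2 were called higher and 3 lower, with a median log2 fold change of -0.03. Dlx5, a homeobox factor that acts with RUNX2 in bone, was at 0.698 ± 0.212 CPM in Opa1cKO and 3.30 ± 1.02 CPM in WT, with no overlap (log2 fold change -2.21, SE 0.292, edgeR adjusted p = 0.000435), and it passed in every alternative fit. Hes1, a Notch-induced repressor, was at 44.9 ± 13.9 CPM in Opa1cKO and 18.9 ± 10.4 CPM in WT, with overlapping ranges (log2 fold change 1.03, adjusted p = 0.00284 in edgeR), but missed the threshold with sex taken from the reads (adjusted p = 0.0703). Smurf1, a ubiquitin ligase known to mark RUNX2 for degradation, was at 104 ± 9.90 CPM in Opa1cKO and 76.5 ± 5.45 CPM in WT, with no overlap (log2 fold change 0.47, edgeR adjusted p = 0.00292).

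The partners called lower besides Dlx5 moved little. Tle4, a Groucho co-repressor that RUNX proteins recruit, was at 78.7 ± 7.87 CPM in Opa1cKO and 98.6 ± 8.79 CPM in WT (log2 fold change -0.34, edgeR adjusted p = 0.0296). Barx2, a homeobox factor of cartilage, was at 128 ± 21.2 CPM in Opa1cKO and 162 ± 15.6 CPM in WT (log2 fold change -0.41, edgeR adjusted p = 0.0380). The Tle4 call was lost when WT 6, Opa1cKO 1, Opa1cKO 4 or Opa1cKO 6 was left out, and the Barx2 call in 9 of 12 such fits.

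Of 28 known cartilage targets of SOX9, SOX5 and SOX6, 25 were tested, with 3 called higher and 0 lower and a median log2 fold change of 0.46 against 0.0126 over all genes. At an unadjusted p under 0.05 there were 9 higher and 1 lower, against 25.2% of all genes in either direction. DESeq2 called 3 higher and 1 lower, and limma-voom 2 higher and 0 lower. The called genes were not the major matrix components. Fgfr3, a receptor that restrains chondrocyte growth, was at 228 ± 74.4 CPM in Opa1cKO and 144 ± 19.0 CPM in WT (log2 fold change 0.75, edgeR adjusted p = 0.0200). Chadl, a small collagen-binding matrix protein, was at 2.04 ± 0.767 CPM in Opa1cKO and 0.773 ± 0.211 CPM in WT, with no overlap (log2 fold change 1.18, edgeR adjusted p = 0.0235). Matn4, a matrilin, was at 1.98 ± 2.37 CPM in Opa1cKO and 0.153 ± 0.133 CPM in WT (log2 fold change 3.59, edgeR adjusted p = 0.0417).

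These target calls were lost when certain single libraries were left out. Without Opa1cKO 6 the adjusted p was 0.128 for Fgfr3, 0.0791 for Chadl and 0.132 for Matn4, and without WT 6 it was 0.0694, 0.0881 and 0.0593. The Chadl call was also lost without WT 5, and the Matn4 call in 10 of 12 such fits. Acan, which encodes the main proteoglycan of the disc and is a direct SOX9 target, was at 8628 ± 2968 CPM in Opa1cKO and 13062 ± 2325 CPM in WT. At -0.53 on the log2 scale it did not pass (edgeR adjusted p = 0.103), but reached -0.84 with an adjusted p of 0.00862 without Opa1cKO 6. The labels do not say whether WT mice carried AcanCre, and the part of AcanCre itself in the Acan values was not tested.

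Hypertrophy and bone genes known as targets of RUNX2, RUNX3 or MEF2C gave calls in the other direction. Of 20, 12 were tested, with 0 called higher and 4 lower and a median log2 fold change of -0.32. At an unadjusted p under 0.05, 1 was higher and 5 lower, against 25.2% of all genes in either direction. DESeq2 and limma-voom each called 0 higher and 4 lower. Dlx5, Vegfa and Phex were among them. None of the 4 overlapped between genotypes, while 554 of all 15229 genes tested lay wholly lower in Opa1cKO. The 4 were called on these same values, so their apart ranges are not separate support. Col10a1, of the same list, went the other way without passing (log2 fold change 2.05, SE 0.92, edgeR adjusted p = 0.192). Its highest library was Opa1cKO 6, at 19.1 CPM. Untested for lack of reads were Mmp13, Ihh, Bglap, Sp7, Dmp1, Mepe, Tnfsf11 and Panx3, with at most 18 counts in any library.

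Vegfa, the angiogenic growth factor, ranged from 279 to 450 CPM in Opa1cKO and from 470 to 915 CPM in WT (log2 fold change -0.86, SE 0.158, edgeR adjusted p = 0.00403). Phex, a peptidase of mineralising cells, ranged from 0.350 to 1.71 CPM in Opa1cKO and from 2.24 to 4.01 CPM in WT (log2 fold change -1.47, SE 0.314, edgeR adjusted p = 0.0100). Osteoblast markers, a list that overlaps these targets, had 6 of 9 genes below 1 CPM in every library and summed to 221 to 480 CPM in Opa1cKO and 137 to 316 CPM in WT, of which Col1a1 made up 220 to 479 CPM in Opa1cKO and 134 to 312 CPM in WT, and their part in these calls was not tested.

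Upstream signals were mostly without calls. Of 20 hedgehog, PTHrP and BMP genes, 17 were tested, with 1 called higher and 0 lower, a median log2 fold change of 0.13, and 1 higher and 0 lower at an unadjusted p under 0.05. DESeq2 and limma-voom gave the same counts. The gene was Smad1, which carries the BMP signal to the nucleus and binds RUNX2. It ranged from 20.6 to 27.8 CPM in Opa1cKO and from 16.4 to 20.2 CPM in WT, with no overlap (log2 fold change 0.42, SE 0.0947, edgeR adjusted p = 0.0134), and missed the threshold without Opa1cKO 6 (adjusted p = 0.0751). Ptch1, the hedgehog receptor, was at 91.4 ± 7.70 CPM in Opa1cKO and 83.4 ± 6.87 CPM in WT (log2 fold change 0.13, SE 0.0819).

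**Figure D5:**
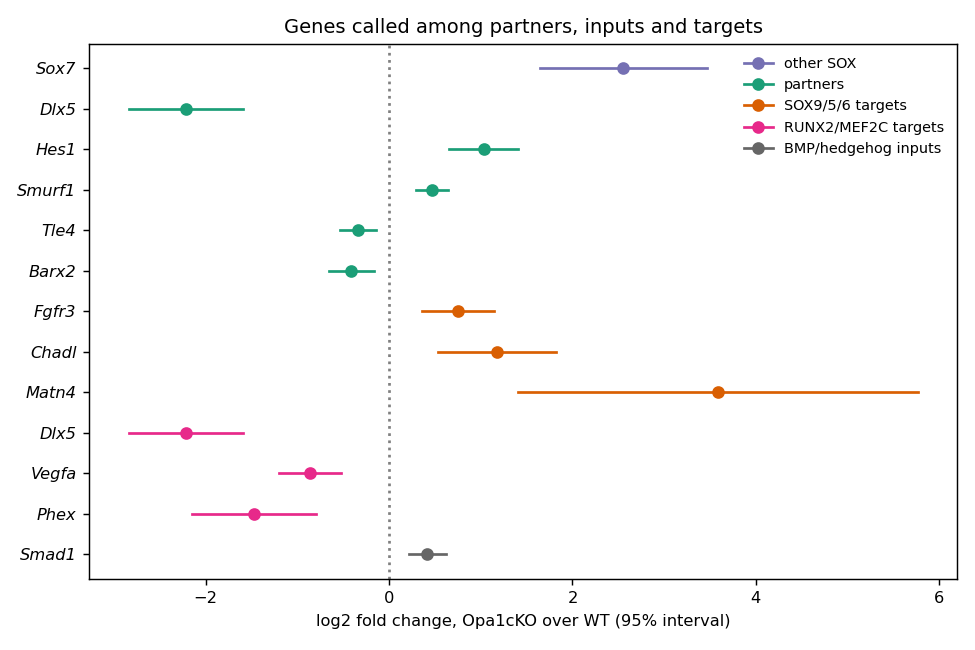
Log2 fold change, Opa1cKO over WT, with 95% intervals, of 12 called genes among the other SOX genes, partners, targets and inputs, coloured by list, with Dlx5 in 2 lists. The RUNX2 and MEF2C targets drawn lie below 0, from -2.21 for Dlx5 to -0.86 for Vegfa. The SOX targets called in edgeR lie above 0, from 0.75 for Fgfr3 to 3.59 for Matn4.

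Without the 4 libraries of contradicted sex, these lists had fewer calls. In edgeR the SOX targets and the upstream signals had 0 genes called in either direction, with 3 and 2 higher at an unadjusted p under 0.05, the partners had 1 called higher and 1 lower, and the RUNX and MEF2 targets 1 lower. Other tools were not run on these 8 libraries. The fit over the remaining 8 libraries called 325 genes in all, against 1558 over 12. With no male WT library left, its genotype values rest on Opa1cKO 5 and Opa1cKO 6 against WT 1, WT 2 and WT 3. What the 4 libraries added to the lost calls therefore cannot be told from this fit. Vegfa was at -0.61 there (edgeR adjusted p = 0.167), Phex at -1.28 (adjusted p = 0.225), Smurf1 at 0.55 (adjusted p = 0.0671) and Dlx5 at -2.46 (adjusted p = 0.0189).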

How the data were processed

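RNA from the caudal nucleus pulposus of 12 mice was sequenced, per the labels' protocols from 50 ng of RNA with a stranded kit, ribosomal RNA removed, and 14 PCR cycles. The authors deposited raw read counts for 32285 genes and a TPM table. The submitters' processing notes name STAR 2.7.11b and mm10; the counting program and its use of strand were not given in the sources used. The members and gene lists were chosen with earlier results of these data known. Counts were tested in edgeR 4.0.16 (R 4.3.3) by quasi-likelihood with TMM scaling, robust estimation, terms for labelled sex and genotype, and filterByExpr at a minimum of 10 counts. Benjamini-Hochberg adjustment covered 15229 genes, with calls at 0.05. The fit was tested on simulated data. DESeq2 1.42.0, limma-voom (limma 3.58.1), other scalings, filters and sex terms, TPM with pseudocounts of 1 and 0.1, and leaving out libraries were alternatives; the Sox4 comparison by sex-linked reads and the expression ratios were added after the data were seen. Named were all members, up to 4 genes per list by p, Barx2 (a further called partner, chosen after its values were seen), Opa1, and the 3 genes most like Sox8, the member with the smallest p, among genes with mean 1 CPM or more; some genes that met this rule are counted but not reported here. Depth was 37268242 to 56618266 counts; limits from counts cover counting error only. Library pairs within a genotype differed by a chi-square per degree of freedom of 33 or more.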

Additional observations from a re-analysis of the deposited data

Results flagged for a closer look

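Within groups of 6 libraries, the highest or lowest value was set against the others by Dixon's test at the 95% level for the named genes. Of 68 groups checked, 6 held a library that stood apart (8.82%), and 4 of the 6 were in Opa1cKO 6. About 1 in 20 would be the share for independent groups. The genes share the same libraries, so the groups are not independent and the 2 shares cannot be compared as a test. Among the factors, Runx1 was at 71.79 CPM in Opa1cKO 6 with the next Opa1cKO library at 34.12 CPM, and Cbfb was at 65.49 CPM in WT 2 with the next WT library at 51.94 CPM. Among partners and targets, Smurf1 was at 123.6 CPM in Opa1cKO 6 with the next at 103.3 CPM, Barx2 at 87.48 CPM in Opa1cKO 5 with the next at 127.8 CPM, Acan at 14340 CPM in Opa1cKO 6 with the next at 9232 CPM, and Gli2, a hedgehog effector, at 3.066 CPM in Opa1cKO 6 with the next at 1.061 CPM.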

How the results depend on the processing

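Over 16 other settings of scaling, filter, sex term, tool and unit, 0 members were called in either direction in each. Sox6 and Sox8 stayed negative and Sox9, Runx1 and Runx2 positive in all 16, Sox8 between -0.60 and -0.30 with an adjusted p of 0.0581 to 0.549. Leaving out single libraries gave 0 to 1 member called higher, 0 to 1 called lower, 0 to 0 for genotype by labelled sex, and 819 (without Opa1cKO 6) to 1995 (without Opa1cKO 3) genes called, with 973 without WT 6. Fitted values then ran from -0.10 to 0.22 for Sox4, -0.16 to 0.15 for Sox5, -0.011 to 0.53 for Runx1, -0.089 to 0.43 for Runx2, -0.16 to 0.0026 for Cbfb and -0.44 to 0.10 for Mef2c. Genes called numbered 1558 in the fit described, 325 without the 4 libraries of contradicted sex, 419 in labelled males, 300 in labelled females and 2473 at an adjusted p below 0.1. Fewer libraries enter the first 3 of these, and the last is a looser threshold. Signs turned for Sox4 (-0.049 with sex from the reads, -0.30 in labelled females), Mef2c (0.29 without the 4 libraries, 0.21 in labelled females), Sox5 (-0.12 in labelled males), Cbfb (0.037 in labelled males) and Ptch1 (-0.034 in labelled males); the cause was not tested. The replicate block called 1269 genes and put Sox5 at -0.00067, but same-numbered libraries correlated at -0.217 to 0.043 and 0 of 12 matched their own number best, so the numbers do not pair the mice.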

Other observations

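The balance of Sox9 to Sox8 within each library, chosen after the values were seen, was computed as a CPM ratio. It was 25.1, 10.02, 16.9, 13.1, 8.63 and 16.2 in Opa1cKO 1 to 6, and 6.44, 9.70, 9.73, 7.73, 9.58 and 7.90 in WT 1 to 6. All Opa1cKO libraries but Opa1cKO 5 exceeded every WT library. The mean log2 ratio was 3.82 ± 0.558 in Opa1cKO and 3.07 ± 0.242 in WT (SD, n = 6 each), a difference of 0.741 (two-sided exact permutation p = 0.0152, 0.0456 adjusted over 3 ratios). Since these values picked the pair, its p is a description and not a test. The adjustment covers 3 ratios, while the 9 tested genes form 36 pairs. The permutation has no sex term, and among libraries with Xist reads alone the difference was 0.513. Leaving out each library gave an exact p of 0.00216, the smallest possible, to 0.0303. Without the 4 libraries of contradicted sex the difference was 0.754 (exact permutation p = 0.0893). With no sex term, that value mixes sex with genotype. It sets the male Opa1cKO 1, Opa1cKO 2 and Opa1cKO 3 and the female Opa1cKO 5 and Opa1cKO 6 against the female WT 1, WT 2 and WT 3. The log2 ratio of Sox6 to Sox5 differed by -0.251 (exact permutation p = 0.0693, adjusted 0.104) and that of Runx1 to Runx2 by -0.063 (exact permutation p = 0.753).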
